A study of Homo sapiens with 6 samples.

Results

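The genes described here are 10 members of the TGF-beta pathway, the ligand genes TGFB1, TGFB2, TGFB3 and INHBA, the receptor genes TGFBR1 and TGFBR2, the signal carrier SMAD3, the inhibitors SMAD7 and SKIL, and the secreted target TGFBI. They were taken by symbol from a deposited table of 58884 genes, which gave 9 of the 10. The TGFB1 identifier, ENSG00000105329, stands in that table under the symbol AC011462.1 with the description of transforming growth factor beta 1, so this gene was matched by identifier. The members were picked from a list and not by a threshold on their values, but with earlier results of these data known. All 10 passed the filter on low counts.

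RNA came from DBTRG, an established human glioblastoma cell line whose genotype is labelled WT in both groups, harvested after 5 days of culture. In 3 libraries the cells had grown in 2D on a rigid dish, and in the other 3 they had grown in 3D in a soft gel. The labels name neither the gel material nor its stiffness, so dimension and stiffness change together between the groups and cannot be told apart. Nothing in the labels says that the libraries came from separate cultures, so the tests speak of the spread among these 6 libraries alone, and that spread may be technical.

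TGF-beta ligands are secreted in a latent complex and, once released, bind the type II receptor TGFBR2, which phosphorylates and activates the type I receptor TGFBR1. TGFBR1 then phosphorylates SMAD2 and SMAD3, which join SMAD4 and enter the nucleus to regulate genes, among them SMAD7 and SKIL, whose products restrain the pathway. In glioblastoma the pathway is known for its part in invasion, immune suppression and maintenance of stem-like cells, and TGFB2 has long been known as an immunosuppressive factor that glioblastoma cells secrete.

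The 6 libraries held between 20911340 and 25901465 counts each. A count of 0 allows up to 3 counts, which is 0.112 to 0.141 CPM (counts scaled to a common library size, with TMM factors). The glioma markers VIM, CD44, NES, EGFR and SOX2 were well above this limit in every library, whereas GFAP was at 0.645 ± 0.318 CPM on rigid dishes against 0.882 ± 0.612 CPM in soft gel (SD, n = 3) and OLIG2 had 0 counts in all libraries. S100B, at 0.653 ± 0.394 and 1.30 ± 0.180 CPM, and CHI3L1, at 0.438 ± 0.151 and 0.449 ± 0.175 CPM, were low as well. Of the 8 glioma markers tested, SOX2 and CD44 rose and VIM, NES and EGFR fell. The 15 markers of other cell types summed to 126 to 129 CPM on rigid dishes against 146 to 176 CPM in soft gel, of which MBP held 111 CPM in each group on average. AIF1 and EPCAM had 0 counts in the rigid dish libraries, and MOG had 0 counts in soft gel. Of the 4 markers tested, CD68, a lysosomal protein of macrophages, rose from 12.01 ± 2.54 to 41.1 ± 3.82 CPM and LUM from 1.11 ± 0.207 to 2.25 ± 0.625 CPM, while MBP and SYT1 did not pass. The part of these markers in the results below was not tested.

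In soft gel 3 of the genes rose, 1 fell and 6 did not pass the test. TGFB3, TGFBR1 and SMAD7 were higher, by 2.95-fold, 1.61-fold and 1.59-fold, and SMAD3 was 1.73-fold lower. The test was edgeR's quasi-likelihood test over 16098 genes, with a Benjamini-Hochberg adjusted p below 0.05 taken as changed. Of all genes tested, 28.6% changed, 15.4% upward and 13.2% downward, beside 4 of 10 here, and nothing particular to the 10 genes is read from this share. In bulk RNA, fewer expressing cells and less RNA per cell cannot be told apart. The median log2 fold change was 0.16 for the 10 genes and 0.05 for all genes tested. In CPM, the groups did not overlap for 5 of the 10, the 4 changed genes and TGFBR2, against 44.6% of all genes. A fit with the replicate number as a block called 7 of the 10, against 40.0% of all genes. Without soft gel 1 or without soft gel 2, 2 rose and 0 fell, and without rigid dish 1 the counts were 4 and 2. Calls over all genes moved too, to 1963 of 16467 without soft gel 1 and 1803 of 16410 without soft gel 2. Without rigid dish 1 they were 6164 of 16566.

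**Figure D1:**
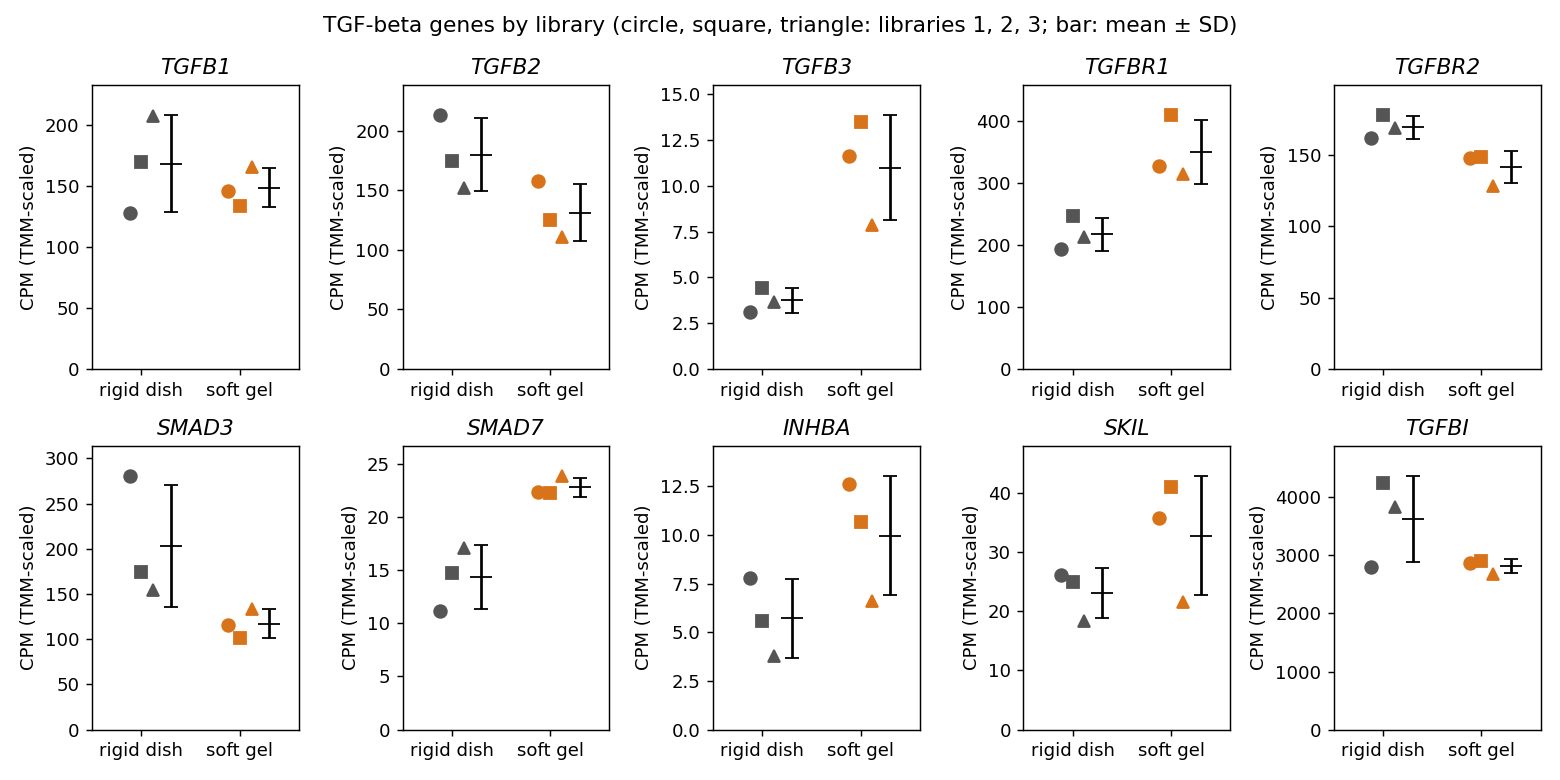
Level of each of the 10 genes in CPM (TMM-scaled, each axis from 0) in the 3 rigid dish and 3 soft gel libraries, with a circle, square and triangle for libraries 1, 2 and 3 and the mean ± SD beside them. TGFB3, TGFBR1 and SMAD7 lie higher in every soft gel library, SMAD3 and TGFBR2 lie lower, and the groups overlap for the other 5 genes.

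**Figure D2:**
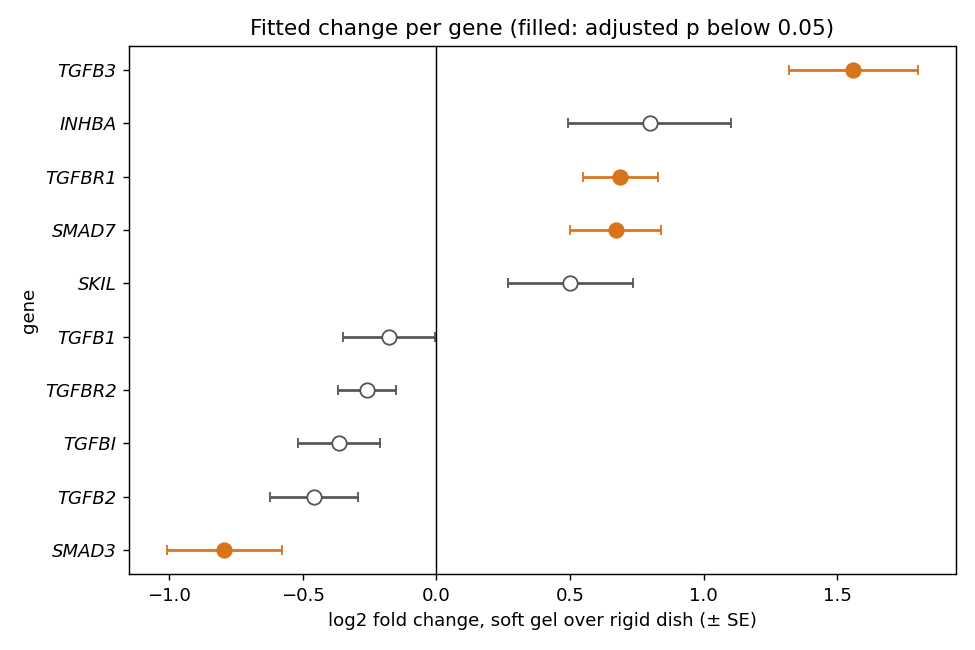
Fitted log2 fold change of soft gel over rigid dish for each gene, with its standard error, from edgeR. The 4 filled points are TGFB3 (1.56), TGFBR1 (0.69), SMAD7 (0.67) and SMAD3 (-0.79), which passed the test.

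Among the ligands, only TGFB3 passed the test. TGFB3 (ENSG00000119699, hg38 chromosome 14, 75958099 to 75982991, minus strand) encodes the least abundant of the 3 TGF-beta isoforms in these cells. Its counts were 83, 103 and 82 on rigid dishes against 283, 332 and 168 in soft gel, for levels of 3.11, 4.44 and 3.67 CPM against 11.7, 13.5 and 7.88 CPM. The lowest soft gel library was thus above the highest rigid dish library. The log2 fold change was 1.56 (SE 0.242, edgeR adjusted p = 0.00293), and 3.70% of all tested genes had a larger absolute change. On the opposite strand TGFB3 overlaps IFT43, whose counts were 172, 251 and 253 on rigid dishes against 214, 176 and 154 in soft gel. No strand setting is stated, so reads of the overlap could count for either gene.

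TGFB1 and TGFB2 were far more abundant and neither passed. TGFB1, the isoform most tissues produce, was at 128, 170 and 207 CPM on rigid dishes against 146, 134 and 166 CPM in soft gel, so that the soft gel values lay within the rigid dish range. Its log2 fold change was -0.18 (SE 0.172, edgeR adjusted p = 0.456). TGFB1 overlaps HNRNPUL1, CCDC97 and TMEM91 on the opposite strand, of which HNRNPUL1 had 12913, 11702 and 11592 counts on rigid dishes against 7423, 6931 and 7132 in the soft gel. TGFB2 was at 213, 175 and 152 CPM on rigid dishes against 158, 125 and 111 CPM in soft gel, and only soft gel 1 reached into the rigid dish range. The log2 fold change of TGFB2 was -0.46 (SE 0.166, edgeR adjusted p = 0.0644). It passed on leaving out rigid dish 3 (adjusted p = 0.0322), and the authors' deposited table, which compares the same groups, lists an adjusted p of 0.0129 for it.

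INHBA encodes the subunit that pairs with itself to form activin A, a ligand that signals through its own receptors to SMAD2 and SMAD3. Its counts were low, at 208, 130 and 84 on rigid dishes against 306, 263 and 141 in soft gel, or 7.78, 5.60 and 3.76 CPM against 12.6, 10.7 and 6.62 CPM. Soft gel 3 fell within the rigid dish range, so the groups overlapped. The log2 fold change was 0.80 (SE 0.304, edgeR adjusted p = 0.0749), larger than that of TGFBR1 or SMAD7, but its standard error was also the largest of the 10. INHBA passed without rigid dish 1 (adjusted p = 0.0182) or without soft gel 3 (0.0346).

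Levels of different genes are compared in TPM, which the authors scaled by transcript length. The summed TPM of TGFB1, TGFB2 and TGFB3 was 140 ± 5.50 on rigid dishes against 131 ± 11.04 in soft gel (SD, n = 3; two-sided exact permutation test, p = 0.3). TGFB1 held 62.5% ± 9.30 of that sum on rigid dishes against 63.0% ± 6.15 in soft gel (by exact permutation, p = 1). TGFB2 held 35.4% ± 9.38 and 29.5% ± 5.01 (by exact permutation, p = 0.4). TGFB3 held 1.77%, 2.48% and 1.95% in the rigid dish libraries and 6.68%, 10.3% and 5.34% in the soft gel libraries (p = 0.1 by the exact permutation test, which cannot go lower with these group sizes). TGFB3 therefore remained the smallest of the 3 shares in every library although its own level rose. Its groups were already apart in TPM while the sums were similar, so the p for its share adds no evidence.

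The receptors of the pathway differed in their response. TGFBR1 (ENSG00000106799, chromosome 9, 99104038 to 99154192, plus strand), the type I receptor kinase, was at 194, 247 and 213 CPM on rigid dishes against 327, 410 and 315 CPM in soft gel. Every soft gel library lay above every rigid dish library. Its log2 fold change was 0.69 (SE 0.14, edgeR adjusted p = 0.0082). Among the 1843 tested genes with means from 100 to 400 CPM, 10.8% rose and 31.2% fell, so TGFBR1 moved against the more frequent direction at its level, and SMAD3, in the same range, moved with it. TGFBR2, the type II receptor that binds the ligand, was at 162, 178 and 169 CPM on rigid dishes against 148, 148 and 128 CPM in soft gel. These groups did not overlap either, but the log2 fold change of TGFBR2 was only -0.26 (SE 0.108) and did not pass (edgeR adjusted p = 0.0965). In TPM the TGFBR2 groups overlapped, with 44.4 to 54.9 on rigid dishes against 38.7 to 47.5 in soft gel.

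The SMAD genes among the 10 moved in opposite directions. SMAD3 (ENSG00000166949, chromosome 15, 67063763 to 67195195, plus strand), the receptor-activated transcription factor, was at 280.4, 175 and 154 CPM on rigid dishes against 116, 102 and 134 CPM in soft gel. Rigid dish 1 stood well above the other two, and all soft gel libraries were below all rigid dish libraries. The log2 fold change was -0.79 (SE 0.215, edgeR adjusted p = 0.0248), and -0.49 without rigid dish 1 (adjusted p = 0.0181). SMAD3 no longer passed when soft gel 1 (adjusted p = 0.0833) or library 2 of that group (0.106) was left out, and with the TPM values (0.104 and 0.108). SMAD7 (ENSG00000101665, chromosome 18, 48919853 to 48952052, minus strand), the inhibitory SMAD that blocks TGFBR1 and recruits ubiquitin ligases to it, was at 11.2, 14.7 and 17.1 CPM on rigid dishes against 22.3, 22.2 and 23.8 CPM in soft gel. The soft gel libraries were close together and all above the rigid dish libraries. Its log2 fold change was 0.67 (SE 0.17, edgeR adjusted p = 0.0192). SMAD7 no longer passed when rigid dish 2 was left out (adjusted p = 0.0707), nor when soft gel 1 (0.0664) or its library 2 (0.0646) was. Among the 3559 tested genes with means from 5 to 20 CPM, the range that holds SMAD7 and TGFB3, 18.9% rose and 8.71% fell.

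SKIL and TGFBI, a nuclear repressor and a secreted matrix protein, did not pass. SKIL, whose product SnoN represses SMAD target genes, was at 26.2, 25.0 and 18.3 CPM on rigid dishes against 35.9, 41.0 and 21.5 CPM in soft gel. Soft gel 3 lay inside the rigid dish range. The log2 fold change of SKIL was 0.50 (SE 0.235, edgeR adjusted p = 0.134), and it passed without soft gel 3 (adjusted p = 0.0222). TGFBI, an abundant protein that binds integrins and collagens, was at 2802, 4238 and 3825 CPM on rigid dishes against 2862, 2907 and 2673 CPM in soft gel. In CPM, rigid dish 1 was level with the soft gel libraries, and the other rigid dish libraries were above them. In TPM the TGFBI groups did not overlap, with 2019 to 2588 on rigid dishes against 1742 to 1967 in soft gel. The TGFBI log2 fold change was -0.36 (SE 0.153, edgeR adjusted p = 0.0995), and -0.53 without rigid dish 1 (adjusted p = 0.00334). For SKIL, counts and TPM ordered the libraries differently: rigid dish 2 and 3 held 580 and 409 counts but 6.05 and 6.53 TPM. The ratio of counts to TPM varied over 0.66 log2 units among libraries for SKIL, a wider range than in 86.3% of genes, and over 0.02 for TGFBR2.

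For comparison, the authors' deposited table gave the same direction for all 10 genes and an adjusted p below 0.05 for 8 of them, all but TGFB1 (0.359) and SKIL (0.134). Its log2 fold change was 1.34 for TGFB3, 0.60 for TGFBR1, 0.58 for SMAD7 and -0.79 for SMAD3. The share of all genes below 0.05 among the authors' values was not counted, so nothing particular to the 10 genes is read from the 8. The DESeq2 fit run here called 5290 of 16098 genes.

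In order of TPM, TGFBI stood far above the rest in both groups, at 2238 ± 307 on rigid dishes against 1871 ± 116 in soft gel (SD, n = 3). TGFB1 came next on the rigid dish (87.3 ± 9.64), followed by SMAD3, TGFBR2, TGFB2 and TGFBR1, whose ranges overlapped from each to the next. SKIL and SMAD7 at 7.16 ± 1.53 and 6.43 ± 0.781 formed a lower step, and TGFB3 and INHBA at 2.90 ± 0.540 and 1.78 ± 0.935 the lowest. In soft gel TGFBR1, at 78.4 ± 13.1, ranked directly after TGFB1 at 82.3 ± 6.86, with overlapping ranges, and SMAD3, at 31.1 ± 5.44, ranked below TGFBR2 and TGFB2. The range of TGFBR1 in soft gel, 67.7 to 92.9 TPM, did not overlap that of TGFBR2.

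Ratios within a library, chosen after the values had been seen, restate these shifts without the scaling between libraries. TPM of TGFBR1 over TGFBR2 was 0.866, 0.999 and 0.893 on rigid dishes against 1.57, 2.01 and 1.75 in soft gel (two-sided exact permutation test, p = 0.1, the lowest it can give). TPM of SMAD3 over SMAD7 was 14.3, 6.93 and 5.34 on rigid dishes against 2.70, 2.29 and 3.06 in soft gel (by exact permutation, p = 0.1). For both ratios the TPM ranges of the single genes already force the groups apart, so these p values add no evidence. The ratio of SMAD3 to SMAD2, the other SMAD activated by TGFBR1, was 1.77, 1.07 and 1.16 on rigid dishes against 0.66, 0.652 and 1.02 in soft gel (by exact permutation, p = 0.1). The SMAD3 groups were already apart in TPM, while SMAD2 was at 40.2 ± 6.31 TPM on rigid dishes against 41.1 ± 8.20 in soft gel. This ratio therefore mostly restates SMAD3, and its p adds no evidence either. In all 3 ratios the groups were apart, though for SMAD3 over SMAD2 the highest soft gel library came close to the lowest rigid dish library.

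**Figure D3:**
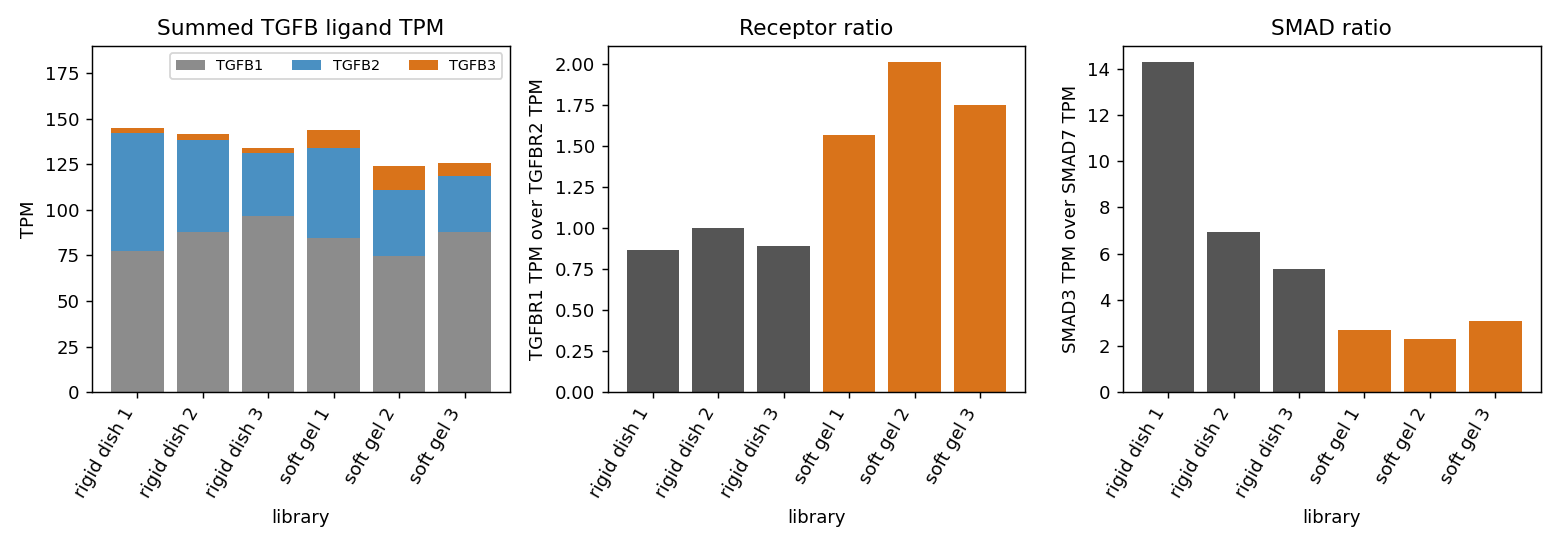
TPM of TGFB1, TGFB2 and TGFB3 stacked per library, and the ratios of TGFBR1 to TGFBR2 and of SMAD3 to SMAD7 in TPM per library, all axes from 0. The TGFB3 part is wider in the soft gel libraries, the receptor ratio is 1.57 to 2.01 there against 0.866 to 0.999, and the SMAD ratio is 2.29 to 3.06 there against 5.34 to 14.3.

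Promoter sequences are shown for the changed genes in which a searched motif was found, to let the regulatory context be read beside the values. RefSeq (GRCh38.p14) gave 25 windows for the 10 genes, each from 250 bases before to 50 bases after an annotated start. Searched on both strands were the SMAD palindrome GTCTAGAC, the AP-1 site TGACTCA and CAGACA, which holds the SMAD-binding core. GTCTAGAC occurred in 0 of the 25 windows and in 0.202% of all 35116 windows, TGACTCA in 2 and 4.95%, and CAGACA in 5 and 16.9%. Of the changed genes, TGFBR1 had CAGACA in 2 of 8 windows, and SMAD3 had TGACTCA in 1 and CAGACA in another of 5 windows, while the 2 windows of TGFB3 and the 3 of SMAD7 held none of these letters. The remaining matches lay in TGFB2 and INHBA (CAGACA) and TGFBR2 (TGACTCA). A match is a string of letters in a window and does not show that a factor binds there. The SMAD3 matches lay at annotated starts inside the gene, and the most upstream SMAD3 window held none. Some TGFBR1 windows overlap each other. Which of the annotated starts these cells use was not tested. The windows follow, read along the gene, with the match in capitals (TGTCTG and TGAGTCA are the motifs on the opposite strand).
TGFBR1 chr9:99103802-99104101, plus strand: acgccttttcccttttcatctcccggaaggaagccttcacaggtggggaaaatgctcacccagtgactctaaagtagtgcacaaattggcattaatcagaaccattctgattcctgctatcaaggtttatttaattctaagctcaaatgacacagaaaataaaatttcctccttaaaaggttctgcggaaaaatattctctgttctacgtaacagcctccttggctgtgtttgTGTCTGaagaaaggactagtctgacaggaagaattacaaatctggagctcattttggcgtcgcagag
TGFBR1 chr9:99104199-99104498, plus strand: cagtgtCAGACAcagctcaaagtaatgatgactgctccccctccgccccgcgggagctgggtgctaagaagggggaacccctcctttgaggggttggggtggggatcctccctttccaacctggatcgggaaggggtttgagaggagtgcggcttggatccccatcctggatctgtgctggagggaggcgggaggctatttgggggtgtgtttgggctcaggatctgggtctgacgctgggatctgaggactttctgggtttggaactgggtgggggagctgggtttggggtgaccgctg
SMAD3 chr15:67125492-67125791, plus strand: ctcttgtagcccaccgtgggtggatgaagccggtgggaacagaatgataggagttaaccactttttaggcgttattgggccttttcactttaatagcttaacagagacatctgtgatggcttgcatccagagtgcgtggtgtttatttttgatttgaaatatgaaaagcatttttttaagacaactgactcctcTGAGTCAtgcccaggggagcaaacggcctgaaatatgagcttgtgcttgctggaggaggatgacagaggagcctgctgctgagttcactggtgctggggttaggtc
SMAD3 chr15:67137771-67138070, plus strand: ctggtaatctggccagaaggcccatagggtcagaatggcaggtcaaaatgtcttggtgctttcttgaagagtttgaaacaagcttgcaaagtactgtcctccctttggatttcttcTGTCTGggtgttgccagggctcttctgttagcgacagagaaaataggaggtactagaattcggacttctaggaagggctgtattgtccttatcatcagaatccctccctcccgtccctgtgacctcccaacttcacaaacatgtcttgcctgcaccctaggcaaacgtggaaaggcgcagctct

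The genes around the 10 were read from 5 lists. Of all genes tested 28.6% changed, against 52.6% in latency and activation, 11.1% in other ligands and receptors and 50% in the inhibitor list. The shares were 44.4% for SMADs and partners and 38.5% for targets, and no test of the lists was run. The share of all genes called also differed by level. At means from 20 to 100 CPM 15.2% rose and 16.2% fell. From 100 to 400 CPM 10.8% rose and 31.2% fell, and from 400 CPM upward 13.8% and 43.2%. The lists were not matched for level, so nothing particular to them is read from their shares. In the list of latency and activation, 5 of 19 tested genes rose and 5 fell. The risen genes with 5 CPM or more included the integrin subunits ITGB8 and ITGB3, which pair with other subunits to form receptors for latent TGF-beta or the matrix. ITGB8 went from 76.9 ± 20.8 to 186 ± 34.9 CPM (log2 fold change 1.27, edgeR adjusted p = 0.00367) and ITGB3 from 7.87 ± 3.00 to 20.06 ± 4.15 CPM (1.35, adjusted p = 0.01). ADAMTS1, a secreted protease, rose from 42.2 ± 1.62 to 79.8 ± 8.80 CPM (0.92, adjusted p = 0.00139). THBS1, thrombospondin-1, which can release the ligand from latency, fell from 1557 ± 488 to 930.7 ± 158 CPM (-0.74, adjusted p = 0.0295). MMP14, a membrane-bound matrix protease (-0.72), and FBN1, the fibrillin that anchors latent complexes in the matrix (-0.68), fell as well. Calls were lost on leaving out 1 library for ITGB3 (soft gel 2), THBS1 (soft gel 2 or soft gel 3) and MMP14 (rigid dish 2 or soft gel 2), while those of ITGB8, ADAMTS1 and FBN1 were not, though FBN1 lost its call in the fits of TPM values. Without soft gel 2, 3 genes of the list rose and 2 fell.

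In the list of other ligands, receptors and co-receptors, 1 of 9 tested genes changed. GDF11, a ligand that signals to SMAD2 and SMAD3, fell from 39.1 ± 4.05 to 27.2 ± 2.58 CPM (log2 fold change -0.52, edgeR adjusted p = 0.0192), a call lost without soft gel 1 or soft gel 2. The co-receptors TGFBR3 (betaglycan) and ENG (endoglin) had adjusted p values of 0.322 and 0.325, and TGFBR3 was low, at 1.38 ± 0.845 and 2.06 ± 0.117 CPM. INHA and INHBB, which encode inhibin subunits, were below 1 CPM in every library and were not tested, and INHBE, another subunit gene, was tested and did not pass (edgeR adjusted p = 0.827). Without rigid dish 1, 2 genes of this list rose and 1 fell.

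In the list named for inhibitors outside the nucleus and at the receptor, 2 of 10 tested genes rose and 3 fell. FSTL3, a secreted protein that traps activin, fell from 88.6 ± 23.1 to 38.4 ± 3.997 CPM (log2 fold change -1.20, edgeR adjusted p = 0.00289). SMURF2, a ubiquitin ligase that SMAD7 brings to the receptor, fell from 134 ± 7.14 to 80.0 ± 5.98 CPM (-0.74, adjusted p = 0.00241). PMEPA1, a membrane protein that sequesters SMAD2 and SMAD3 and is itself induced by the pathway, fell from 1589 ± 196 to 1012 ± 8.26 CPM (-0.65, adjusted p = 0.00521). FKBP1A, which binds the type I receptor (0.39), rose, as did USP15 (0.79), a deubiquitinase of the receptor. USP15 removes ubiquitin, which ligases such as SMURF2 add, so its rise is not read as that of an inhibitor. The calls of FSTL3, SMURF2 and PMEPA1 were kept under all 15 alternatives, whereas those of USP15 and FKBP1A were lost on leaving out any of rigid dish 2 and 3 and soft gel 1 and 2, and that of FKBP1A also without soft gel 3. SMAD7 and SMURF2, partners at the receptor, thus had fold changes of opposite sign, and FST and BAMBI, inhibitors of activin and of the receptors, had adjusted p values of 0.998 and 0.642.

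Among SMADs and nuclear partners, 5 of 18 tested genes rose and 3 fell. SMAD6, the other inhibitory SMAD, which acts mainly on BMP receptors, rose from 10.7 ± 4.93 to 26.7 ± 1.70 CPM (log2 fold change 1.31, edgeR adjusted p = 0.00957), a call kept under all alternatives. ZEB1, a transcription factor of mesenchymal cells (1.21), and ZFYVE16, an endosomal adaptor for SMADs (1.01), rose, and both calls were lost on leaving out any of rigid dish 2 and 3 and soft gel 1 and 2. RUNX1 (-0.78), RUNX2 (-0.67) and SKI (-0.51), a repressor related to SKIL, fell. RUNX1 kept its call on leaving out each library but lost it in the fits of TPM values. RUNX2 lost its call without rigid dish 2 or soft gel 1, and its sign turned in the fits of TPM values. SKI lost its call without rigid dish 2 or either of soft gel 1 and 2. SMAD2, at 62.05 ± 2.65 and 72.7 ± 3.10 CPM, and SMAD4, at 51.3 ± 4.19 and 48.2 ± 2.73 CPM, did not pass (edgeR adjusted p = 0.124 and 0.577). In this list 1 gene rose and 1 fell without rigid dish 2, 1 and 3 without rigid dish 3, 2 and 1 without soft gel 1, and 1 and 2 without soft gel 2.

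Transcriptional targets that changed were mostly lower, with 2 of 26 tested genes higher and 8 lower and a median log2 fold change of -0.29. COL4A2, a basement membrane collagen chain, fell from 937 ± 148 to 433 ± 29.3 CPM (log2 fold change -1.12, edgeR adjusted p = 0.00115). PDGFB, a growth factor, fell from 9.12 ± 2.16 to 3.39 ± 0.78 CPM (-1.42, adjusted p = 0.00493), and BHLHE40, a transcriptional repressor, from 106 ± 31.6 to 59.9 ± 2.93 CPM (-0.83, adjusted p = 0.0178). JUNB, an AP-1 subunit (0.61), and NEDD9, a focal adhesion scaffold (0.44), rose. Calls of COL4A2 and PDGFB were kept under all alternatives. BHLHE40 lost its call without rigid dish 2 or either of soft gel 1 and 2, JUNB without rigid dish 2 or either of soft gel 1 and 3, and NEDD9 without any of rigid dish 2 and 3 and soft gel 1 and 2. CCN2, a matricellular protein often read as a target, was at 772 ± 80.3 and 642 ± 65.6 CPM and did not pass (edgeR adjusted p = 0.132), and it was chosen for mention after its values were seen. Without rigid dish 2, 0 targets rose and 5 fell, and the counts were 0 and 6 without soft gel 1 and 1 and 5 without soft gel 2. Several targets, such as the collagens, answer to many other signals, so the list does not measure the pathway alone. Among all tested genes with means from 100 to 400 CPM, falls were also more frequent (31.2%, against 10.8% that rose). The target list was not matched for level.

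The KEGG term for TGF-beta signaling in the deposited annotation was attached to 145 entries, of which 73 were tested, 12 rose and 13 fell. That is 34.2% of those tested, against 28.6% of all genes, again without matching for level. The entries include noncoding ones, such as the antisense gene TGFB3-AS1 and the microRNA gene MIR3661, so 145 is not a count of pathway members. The term also covers BMP signaling, and its largest rises among genes with 5 CPM or more were ID4 (log2 fold change 3.36), SMAD9 (2.88) and ID2 (2.50), genes of the BMP branch. Its largest falls with 5 CPM or more were NBL1, a BMP antagonist (-1.17), MYC (-1.07) and SMAD3. Without the 8 of the 10 genes that carry the term, 9 of 65 rose and 12 fell, with a median log2 fold change of -0.04. Without soft gel 2, 9 genes of the term rose and 6 fell.

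**Figure D4:**
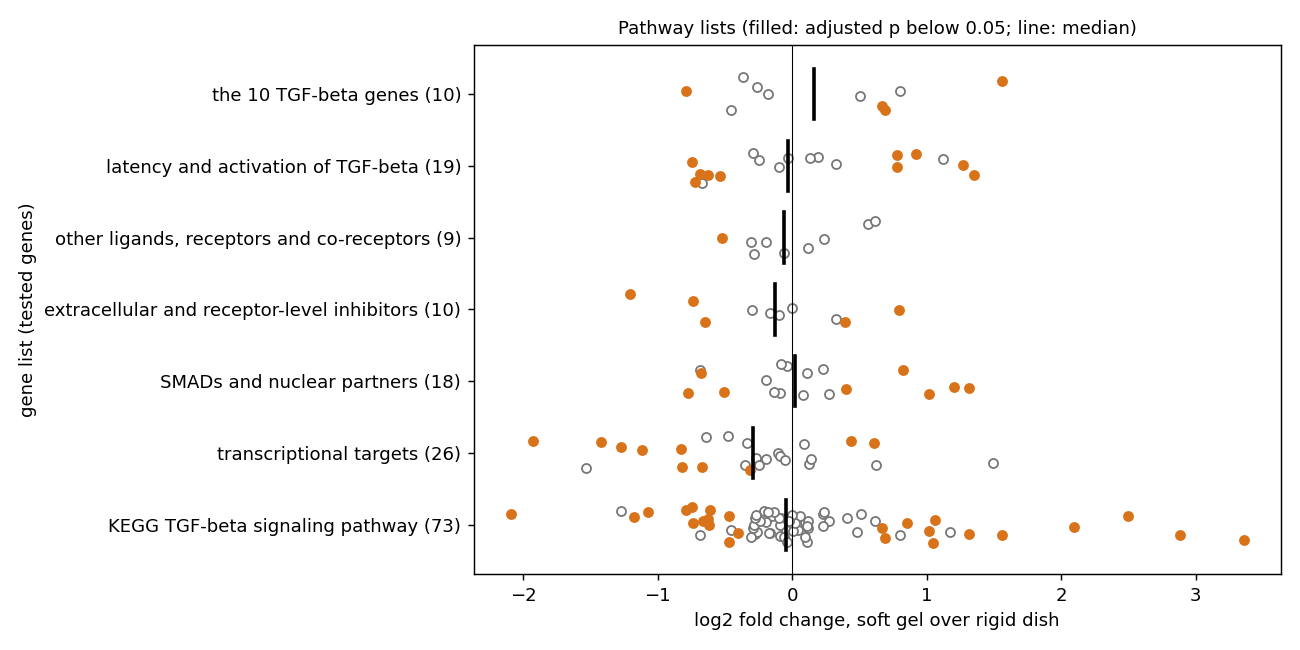
Log2 fold change of soft gel over rigid dish for each tested gene of the 10 and of the 6 pathway lists, with filled points for an adjusted p below 0.05 (edgeR) and a line at the median. Filled points lie on both sides of 0 in every list with more than 1 changed gene, and the targets have the lowest median (-0.29).

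The genes whose levels across the 6 libraries were most like those of a member were sought among 9710 protein-coding genes with 10 CPM or more, by Pearson's r of log2 CPM. With 6 points that fall into 2 groups, many genes reach a high r, so these are a description. For TGFBR1 they were TBC1D9 (r = 0.998) and COQ10B (0.994), and for SMAD7 CTSD (0.999) and TPBG (0.998). The closest genes were CORO1C (0.996) and TIAM1 (0.995) for SMAD3, ABI1 (0.999) and CAST (0.998) for TGFBR2, and POLA1 and CEP55 (both 0.993) for TGFB2. TMEM11 (0.997) and QARS (0.993) were closest to TGFB1, RIOK2 (0.997) and SHOC2 (0.996) to SKIL, and FERMT1 (0.99) and ATP9A (0.987) to TGFBI. TGFB3 and INHBA, with means under 10 CPM, were not compared.

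**Figure D5:**
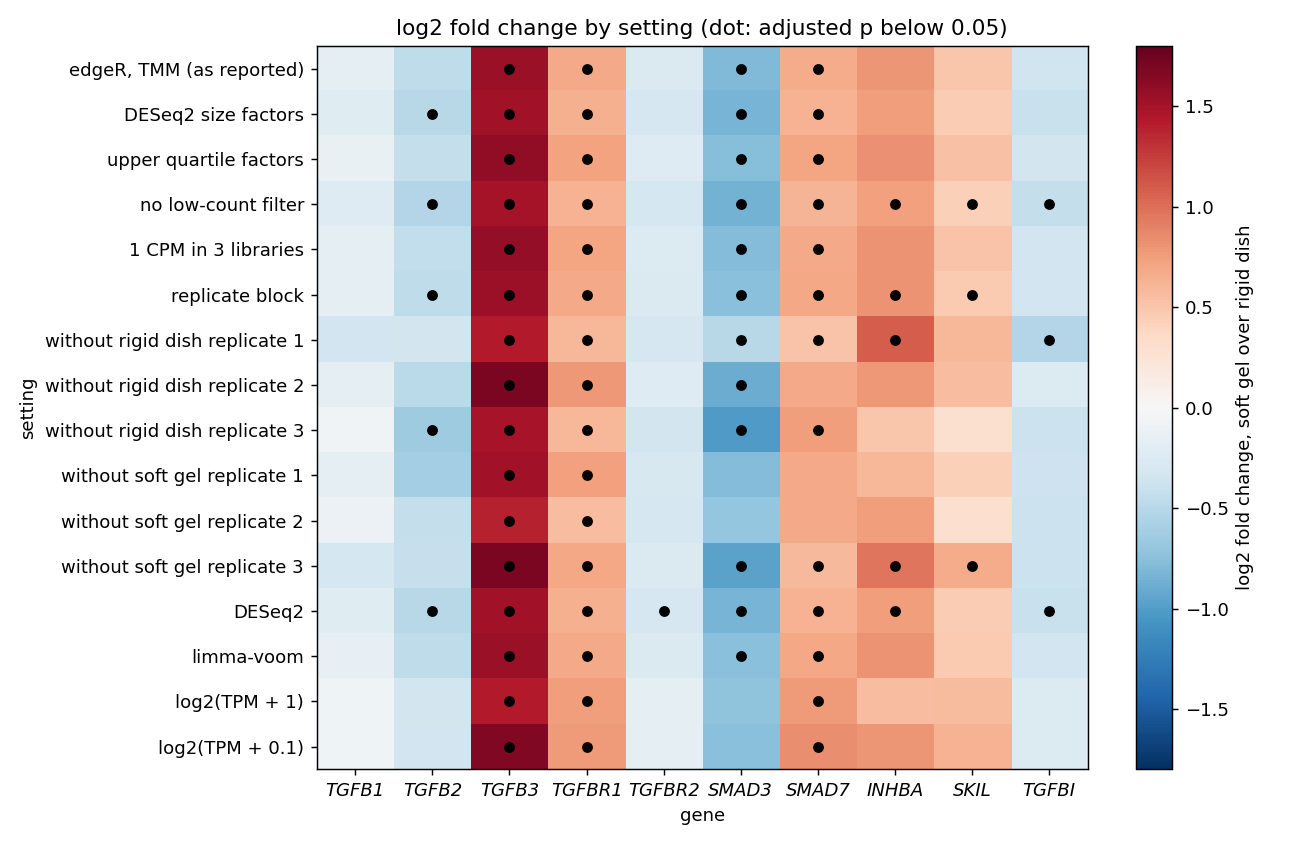
Log2 fold change of the 10 genes (columns) under the reported fit and 15 alternatives (rows), red for higher and blue for lower in soft gel, with a dot for an adjusted p below 0.05. The columns of TGFB3 and TGFBR1 carry a dot in every row, that of TGFB1 in none, and no column changes colour.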

How the data were processed

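Per the labels' protocols, cells were lysed in TRIzol for total RNA, and an Illumina TruSeq RNA kit was used for the libraries. The submitters' processing notes list HISAT2, HTSeq and hg38, with no version. The authors deposited a table holding estimated counts and TPM per gene. In each library 11.3% to 13.0% of genes had counts with decimals, and which program estimated them is not stated. The same table carries the authors' deposited linear fold of the groups, its log2 value, and raw and adjusted p-values. Here the counts were rounded, filtered by filterByExpr at a minimum count of 10, TMM-scaled and tested by edgeR's quasi-likelihood method (edgeR 4.0.16 in R 4.3.3), with Benjamini-Hochberg adjustment over every gene tested and the SE taken from the test statistic. Shares and ratios were compared by exact permutation (scipy 1.17.1). Positions are those of GENCODE release 29, which holds 99.5% of the identifiers. Named were all members, up to 3 risen and 3 fallen genes of each list with the largest change and 5 CPM or more, and for each member with 10 CPM or more the 2 genes most like it. Outside this rule, TGFBR3, ENG, INHA, INHBB, INHBE, FST, BAMBI, SMAD2, SMAD4, CCN2 and the named cell type markers were chosen for mention after their values were seen. Alternatives were other scaling (DESeq2 or upper quartile), other filters (none, or 1 CPM in 3 libraries), a block by replicate number, omission of each library, the tools DESeq2 1.42.0 and limma-voom (limma 3.58.1), and limma on log2(TPM + 1) and log2(TPM + 0.1). The fit was tested on simulated data. Members and lists were chosen with earlier results of these data known. Limits for a count of 0 cover counting error only.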

Additional observations from a re-analysis of the deposited data

How the results depend on the processing

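All 10 genes kept their direction under the 15 alternatives, and TGFB3, TGFBR1 and TGFB1 also kept their side of the threshold. With all libraries, the log2 fold change of SMAD3 lost its call on log2(TPM + 1) (-0.73) and log2(TPM + 0.1) (-0.75). TGFB2 gained a call with DESeq2 size factors (-0.50), no low-count filter (-0.52) and DESeq2 (-0.50), INHBA with no low-count filter (0.73) and DESeq2 (0.75), SKIL with no low-count filter (0.43), TGFBI with no low-count filter (-0.43) and DESeq2 (-0.41), and TGFBR2 with DESeq2 (-0.30). The cause of these gains and losses was not tested. Calls among all genes were 5557 of 29366 with no low-count filter, 4715 of 16098 with DESeq2 size factors and 5290 with DESeq2. Of the 10, 5 were called higher with no low-count filter. Called lower were 2 with DESeq2 size factors, 3 with no low-count filter, 4 with DESeq2 and 0 on either TPM scale. On leaving out 1 library, 2 to 5 were called higher and 0 to 2 lower, and the log2 fold changes ran from -0.35 to -0.07 for TGFB1, -0.63 to -0.32 for TGFB2, 1.39 to 1.69 for TGFB3, 0.56 to 0.78 for TGFBR1, -0.33 to -0.23 for TGFBR2, -1.03 to -0.49 for SMAD3, 0.51 to 0.75 for SMAD7, 0.51 to 1.08 for INHBA, 0.29 to 0.67 for SKIL and -0.53 to -0.24 for TGFBI.

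Called genes on leaving out 1 library numbered 5 to 11 for latency and activation and 0 to 3 for other ligands and receptors. They numbered 3 to 6 for the inhibitor list and 2 to 9 for SMADs and partners. For targets the range was 5 to 14, and for the KEGG term 15 to 31. Among all genes it was 1803 to 6164. Of the other ligands and receptors, 2 were called with no low-count filter and with DESeq2 and 0 on either TPM scale. On log2(TPM + 1) and log2(TPM + 0.1) alike, 6 genes of latency and activation and 3 SMADs and partners were called. For targets the count on log2(TPM + 0.1) was 6, and for the KEGG term on log2(TPM + 1) it was 16. Over all genes, 4603 were called, against 2313 on log2(TPM + 1), 2287 on log2(TPM + 0.1), 2026 when rigid dish 2 was left out, 1963 when soft gel 1 was and 1803 when library 2 of that group was. The TGFB1 share of summed TGFB TPM, 0.529 percentage points higher in soft gel, turned to -4.01 without rigid dish 1 and -2.99 without soft gel 3, with a range of -4.01 to 5.28 on leaving out 1 library. That of TGFB3 rose by 3.94 to 6.40 points on leaving out 1 library and by 2.74 points in CPM in place of TPM, and that of TGFB2 changed by -10.6 to -1.20 points.

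The numbers 1 to 3 of the libraries are not stated to pair cultures. Deviations of same-numbered libraries correlated at 0.217, 0.00912 and 0.307 across genes, and those of other pairs at -0.295 to 0.137. Rigid dish 1 and rigid dish 3 each correlated best with the soft gel library of their own number. Rigid dish 2 correlated better with soft gel 3 (0.0424) than with soft gel 2. With the replicate block, 6442 genes (40.0%) were called in place of 4603. Of the 10 genes, 5 were then higher and 2 lower in the replicate block fit, adding TGFB2 (-0.46), INHBA (0.81) and SKIL (0.47), and 2 of the other ligands and receptors were called.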
